A study of Mus musculus with 25 samples.

Results

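H3K27ac contacts that span 200 kb or more were examined in mouse fibroblasts and embryonic stem (ES) cells. They were taken from 4 deposited lists of H3K27ac HiChIP interactions, in which 10 kb bins are paired within a chromosome. A bin pair was a member when its bin starts lay at least 200 kb apart. There were 1150 such contacts of 60870 interactions in the MEF list, 1120 of 75466 in the ES list, 1604 of 93248 in the TKO-0h list and 967 of 84256 in the TKO-24h list. Together they made 3346 distinct bin pairs of 159365. Distance chose the members, so their span follows from the rule. Listed interactions also passed the same signal cutoff at every distance, so strength and excess over distance-expected contacts are tied to span as well.

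The study followed chromatin contacts around KLF4 and H3K27ac while fibroblasts were turned into pluripotent cells. MEF are mouse embryonic fibroblasts from E13.5 embryos that were heterozygous for an Oct4-GFP reporter, an OKSM reprogramming cassette (at Col1a1, per the design text) and the doxycycline-dependent activator rtTA3 (Rosa26-M2rtTA in the design text). They were collected at passage 3, with no doxycycline named in their labels. ES cells are V6.5 cells grown in KO-DMEM under 2i conditions. The TKO groups name the same V6.5 line and medium, without doxycycline (TKO-0h) or with doxycycline for 24 h (TKO-24h). What TKO stands for, and which gene doxycycline drives there, is not given in the sources used here. H3K27ac HiChIP had 2 libraries each for MEF and ES and 3 each for TKO-0h and TKO-24h, and Hi-C had 2 libraries for each of MEF and ES. Nothing in the labels says that replicates came from separate cultures, so p-values measure only the spread between these libraries.

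H3K27ac is an acetylated histone tail found at active promoters and enhancers. In HiChIP, neighbouring DNA ends in fixed nuclei are ligated and the ligated fragments are enriched with an antibody, so that contacts between acetylated regions are over-represented, whereas Hi-C uses ligation without an antibody. Chromosomes fold into topologically associating domains (TADs), within which contacts are more frequent than across their boundaries. Enhancers can act on promoters far along the chromosome, and contacts between distant promoters are also known.

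Promoters at the anchors of 4 long contacts are shown because the contacts that follow turn on them: Smndc1 and Smc3 join each other in all 4 lists, Phc1 and Nanog join each other in ES and TKO-0h, Jun is an anchor in MEF alone and Klf9 is the promoter end of a strong MEF contact. Each sequence is the 250 bases before the gene's start on the gene's strand, from RefSeq on GRCm38.p6 (mm10): chr19:53390635-53390884 (minus strand) for Smndc1, chr19:53600146-53600395 (plus) for Smc3, chr6:122340228-122340477 (minus) for Phc1, chr6:122707239-122707488 (plus) for Nanog, chr4:95052223-95052472 (minus) for Jun and chr19:23140976-23141225 (plus) for Klf9. Capitals mark matches to the motifs named after the sequences.
Smndc1: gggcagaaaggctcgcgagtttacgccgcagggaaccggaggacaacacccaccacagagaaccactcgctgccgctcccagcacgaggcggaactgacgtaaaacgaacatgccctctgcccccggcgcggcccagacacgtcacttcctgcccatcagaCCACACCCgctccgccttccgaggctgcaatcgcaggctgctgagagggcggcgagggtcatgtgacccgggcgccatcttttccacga
Smc3: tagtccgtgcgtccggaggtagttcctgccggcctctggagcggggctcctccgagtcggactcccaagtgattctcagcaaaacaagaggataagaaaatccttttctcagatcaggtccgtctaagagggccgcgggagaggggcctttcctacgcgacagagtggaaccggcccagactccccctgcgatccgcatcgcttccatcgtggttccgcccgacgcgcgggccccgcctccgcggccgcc
Phc1: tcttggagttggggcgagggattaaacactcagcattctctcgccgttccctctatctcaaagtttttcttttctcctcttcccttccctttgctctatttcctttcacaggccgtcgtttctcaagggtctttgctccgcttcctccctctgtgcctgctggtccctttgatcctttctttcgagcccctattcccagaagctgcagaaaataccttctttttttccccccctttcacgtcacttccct
Nanog: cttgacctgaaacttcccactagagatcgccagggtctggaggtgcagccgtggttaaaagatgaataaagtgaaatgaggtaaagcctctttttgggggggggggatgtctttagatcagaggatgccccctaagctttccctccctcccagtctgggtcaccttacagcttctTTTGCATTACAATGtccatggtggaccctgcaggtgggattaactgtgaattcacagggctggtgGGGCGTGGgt
Jun: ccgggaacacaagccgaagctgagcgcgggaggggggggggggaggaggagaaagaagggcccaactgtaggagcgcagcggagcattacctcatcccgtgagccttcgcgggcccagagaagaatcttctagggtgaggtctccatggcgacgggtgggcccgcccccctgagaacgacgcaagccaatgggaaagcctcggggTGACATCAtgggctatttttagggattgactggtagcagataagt
Klf9: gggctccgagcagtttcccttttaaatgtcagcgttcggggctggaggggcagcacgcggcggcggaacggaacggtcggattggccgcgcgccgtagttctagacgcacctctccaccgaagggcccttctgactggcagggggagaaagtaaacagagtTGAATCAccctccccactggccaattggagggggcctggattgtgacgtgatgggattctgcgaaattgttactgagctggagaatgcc

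Matches were sought on both strands for the AP-1 site TGANTCA, the CRE-type site TGACNTCA, the KLF and SP site GGGNGTGG, the composite OCT-SOX site (TTTGCAT, any base, then ACAATG) and a core of the CTCF motif (CCANNAG followed directly by NNGGC). The windows of Smndc1 and Nanog each held 1 KLF and SP match, Nanog also held the OCT-SOX match, Jun held 1 CRE-type match and Klf9 held 1 AP-1 match. Smc3 and Phc1 held none of the 5 motifs. Among 32851 promoter windows of the same length, 15.9% held the KLF and SP site, 7.49% the CRE-type site, 6.75% the AP-1 site and 2.07% the CTCF core, while the OCT-SOX letters occurred in 2 windows. A match describes letters in the window and says nothing of binding in these cells.

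The long contacts were a small share of every list and close to the lists' lower limit. They made up 1.89% (95% Wilson interval 1.78 to 2.00) of the MEF list, 1.48% (1.40 to 1.57) of ES, 1.72% (1.64 to 1.81) of TKO-0h and 1.15% (1.08 to 1.22) of TKO-24h. These intervals, like all others here, cover counting error only, and neighbouring bins are not independent. Spans had a median of 260 kb in MEF, 250 kb in ES and TKO-0h and 240 kb in TKO-24h. Very long contacts were more frequent in MEF, where 124 (10.8%) spanned 500 kb or more, than in ES (39, 3.48%), TKO-0h (62, 3.87%) and TKO-24h (32, 3.31%). At the edge of the definition, 124, 145, 221 and 132 contacts of the 4 lists spanned exactly 200 kb, with median CPM of 4.14, 4.10, 4.52 and 4.54, and 130, 188, 253 and 157 spanned 190 kb, with 4.36, 3.99, 4.60 and 4.41.

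Strength is given as the authors' CPM (counts per 1000000 contacts), here scaled to the contacts of the bin pair's own chromosome and averaged over libraries. Every listed interaction had passed 3 CPM in each library. The median CPM of the long contacts was 4.20 in MEF, 3.98 in ES, 4.50 in TKO-0h and 4.45 in TKO-24h, against 5.38, 5.54, 6.51 and 6.40 for shorter contacts. The weakest library was under 4 CPM for 60.3% to 65.0% of the long contacts and for 25.5% to 33.1% of shorter ones. Strong long contacts nevertheless existed, with maxima of 22.7, 21.9, 29.9 and 27.02 CPM. The authors' ratio of observed to distance-expected contacts had medians of 12.1 to 17.7 over the long contacts and 2.76 to 3.38 over shorter ones. Because 3 CPM was required at every distance, a long contact needed a higher ratio to be listed, so this difference follows in part from the cutoff. The authors' FDR was under 0.1 for 13.9%, 7.50%, 14.5% and 11.5% of the long contacts. For shorter contacts the shares were 1.60%, 5.88%, 7.62% and 5.77%, in the same order of lists.

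The cutoff works within each chromosome, and small chromosomes held more members. Chromosome 19 held 18.9% of the long contacts in MEF, 28.1% in ES, 21.8% in TKO-0h and 22.3% in TKO-24h, against 5.85% to 8.01% of shorter contacts. Chromosome 2, which is larger, held 6 to 17 long contacts per list. With 1 count cutoff for all chromosomes the members numbered 139, 159, 291 and 126, of which 2, 2, 7 and 3 lay on chromosome 19. Values on chromosome 19 are therefore not on the scale of other chromosomes. Some shares between H3K27ac lists and those in Hi-C, within 1 domain and with gene starts at both anchors were also computed without it. Shares of anchors, H3K27ac peaks, KLF4 contacts and gene lists were not. Long contacts also lay next to each other: joining members whose anchors touched left 676 patches in MEF, 671 in ES, 978 in TKO-0h and 588 in TKO-24h.

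The depth behind these values was 68.3 to 168 times 1000000 contacts per library, and the median count of a long contact was 12 to 26 per library. Long contacts held 1.31% and 1.29% of all listed counts in the MEF libraries, 0.788% and 0.773% in ES, 0.901%, 0.902% and 0.925% in TKO-0h and 0.607%, 0.595% and 0.596% in TKO-24h. The MEF libraries were above all others in this share and the TKO-24h libraries below all others, with no overlap between the 4 groups. Each share is over the group's own list, so it follows in part from the number of long contacts listed there. Over interactions common to MEF and ES, long contacts held 0.334% and 0.345% of the counts in MEF and 0.239% and 0.233% in ES. Over those common to both TKO lists the shares lay closer, at 0.518%, 0.517% and 0.527% at 0 h and 0.509%, 0.498% and 0.497% at 24 h. Counts of TKO-24h replicates 1 and 3 did not differ detectably beyond the sampling noise (chi-square test, p = 0.0991), so they were summed and counted as 1 sample in the test below. This does not show that they came from 1 sample. TKO-0h replicates 2 and 3 were borderline in the same chi-square test (p = 0.0475) and were kept apart.

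Few long contacts were common to fibroblasts and ES cells. Of the 3346 distinct contacts, 978 (29.2%) were in the MEF list alone and 2196 (65.6%) were in 1 or more of the ES and TKO lists and not in MEF. A contact was in 1 list in 69.3% of cases, in 2 in 18.3%, in 3 in 10.8% and in all 4 in 1.61% (54 contacts). The group of ES, TKO-0h and TKO-24h together held 323 contacts that MEF lacked, more than any other combination of 2 or more lists.

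**Figure D1:**
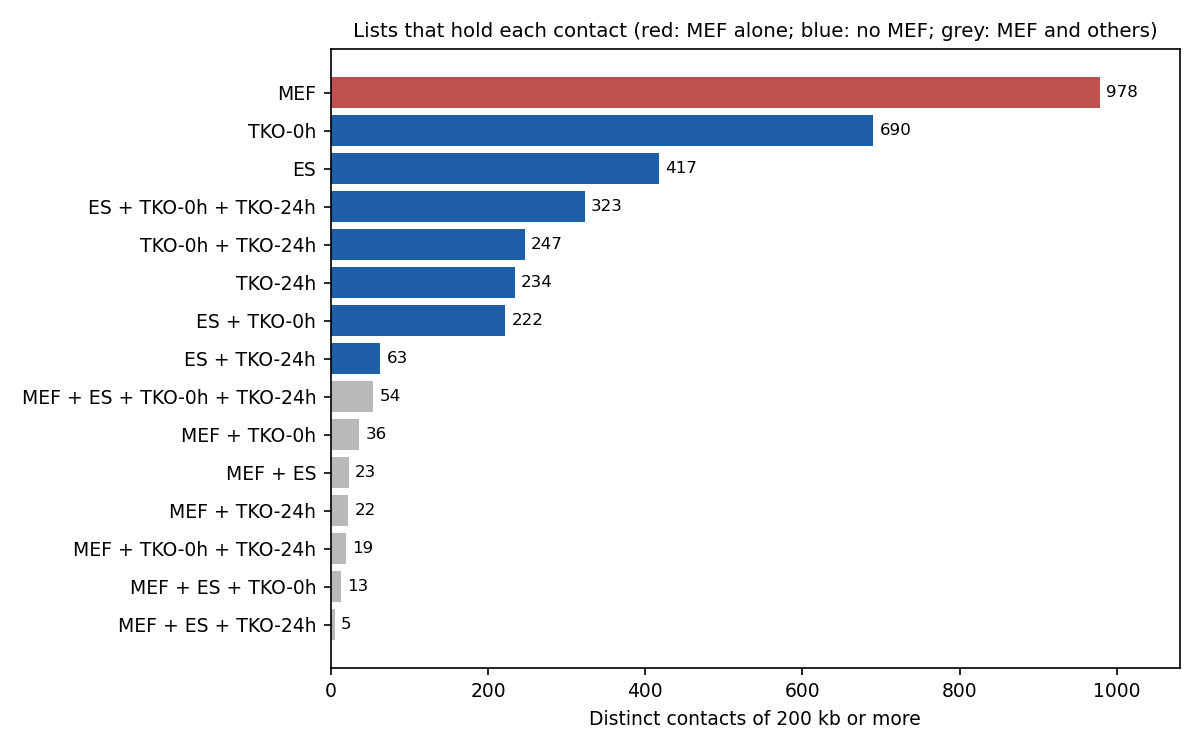
Number of distinct H3K27ac contacts of 200 kb or more (x axis) in each combination of the 4 lists (y axis). The MEF list alone holds the most, 978, while 54 contacts are in all 4 lists.

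In the same bins, 8.26% (6.81 to 9.99) of the MEF long contacts were listed in ES, and 8.48% (6.99 to 10.3) of the ES ones were listed in MEF. Without chromosome 19 these shares were 6.00% and 6.96%. Shorter contacts were shared more, at 29.8% of MEF and 24.0% of ES. Between lists of the ES line the shares were larger: 54.6% (51.7 to 57.5) of ES long contacts were in TKO-0h and 39.7% (36.9 to 42.6) in TKO-24h, and here too shorter contacts were shared more, at 78.0% and 72.8%. TKO-24h long contacts were in the TKO-0h list in 66.5% (63.5 to 69.4) of cases, and TKO-0h ones in the TKO-24h list in 40.1% (37.7 to 42.5). Both shares are of the same 643 contacts, over 967 long contacts at 24 h and 1604 at 0 h. For shorter contacts the shares were 80.5% and 73.2%.

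Sharing was higher among strong contacts, above all within the ES line. Of the 100 strongest long contacts, 97 of ES were listed in TKO-0h, 99 of TKO-24h in TKO-0h and 93 of TKO-0h in TKO-24h. Of the 100 strongest in MEF, 20 were listed in ES, and of the 100 strongest in ES, 17 were listed in MEF. Allowing each anchor to lie 1 bin away raised the shares to 16.9% for MEF in ES, 73.2% for ES in TKO-0h and 82.7% for TKO-24h in TKO-0h.

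The anchors themselves differed in how far they were used elsewhere. Of 1379 bins that anchored a long contact in MEF, 39.0% (36.5 to 41.6) anchored any interaction in ES, at any distance. Of 1320 such bins in ES, 66.6% (64.0 to 69.1) anchored any interaction in MEF and 97.0% any interaction in TKO-0h. At all distances the MEF list had 43848 anchor bins and the ES list 40136. The same shares over all anchor bins were not computed, so the difference may not be particular to long contacts. Among the 1055 MEF long contacts that ES lacked, neither anchor was an ES anchor in 434 (41.1%) and both were in 201 (19.1%). Among the 1025 ES long contacts that MEF lacked, neither was a MEF anchor in 173 (16.9%) and both were in 519 (50.6%). In the TKO-0h list, 813 of the 961 long contacts absent at 24 h (84.6%) had both anchors in the TKO-24h list, joined to other bins, and their median CPM was 4.17, against 5.37 for the 643 contacts present at both times.

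Hi-C support was more frequent for MEF than for the ES line. In the same bins, 399 of 1150 MEF long contacts (34.7%, 32.0 to 37.5) were listed in MEF Hi-C, and 134 of 1120 ES ones (11.96%, 10.2 to 14.0) were listed in ES Hi-C. ES Hi-C listed 219 TKO-0h contacts (13.7%) and 190 TKO-24h contacts (19.6%). The corresponding shares of shorter contacts were close to each other, at 47.4% in MEF, 51.8% in ES, 48.4% in TKO-0h and 52.4% in TKO-24h. Within 1 bin, support was 59.1% in MEF, 28.7% in ES, 31.5% in TKO-0h and 40.8% in TKO-24h. Without chromosome 19 the same-bin shares were 38.3%, 14.0%, 16.02% and 23.3%, in the same order of lists.

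Support was lower at longer distances in the ES line, and less so in MEF. For ES, the share in Hi-C was 30.6% at 100 to 190 kb, 13.9% at 200 to 290 kb, 6.15% at 300 to 490 kb and 7.69% at 500 kb or more. For MEF the same bands gave 40.4%, 34.9%, 35.9% and 30.6%. The last band holds 124 contacts in MEF and 39 in ES. The Hi-C lists themselves held similar numbers of interactions of 200 kb or more, 7479 in MEF and 7505 in ES, of which 5.33% and 1.79% were long H3K27ac contacts of the same cells. Supported contacts had a median CPM of 4.49 against 4.08 for unsupported ones in MEF and 4.20 against 3.97 in ES.

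MEF contacts absent from the ES list were found more often in MEF Hi-C than in ES Hi-C. MEF Hi-C listed 33.0% (30.2 to 35.9) of the MEF long contacts that the ES HiChIP list lacked, and ES Hi-C listed 15.2% (13.1 to 17.5) of them. For the ES long contacts that MEF lacked, ES Hi-C listed 9.76% (8.09 to 11.7) and MEF Hi-C 7.02% (5.62 to 8.75). These intervals overlapped, but both shares are of the same 1025 contacts, and their difference was not tested. At all distances the Hi-C lists held 228083 interactions in MEF and 318622 in ES. Of the 95 long contacts in both lists, MEF Hi-C listed 51 and ES Hi-C 34.

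**Figure D2:**
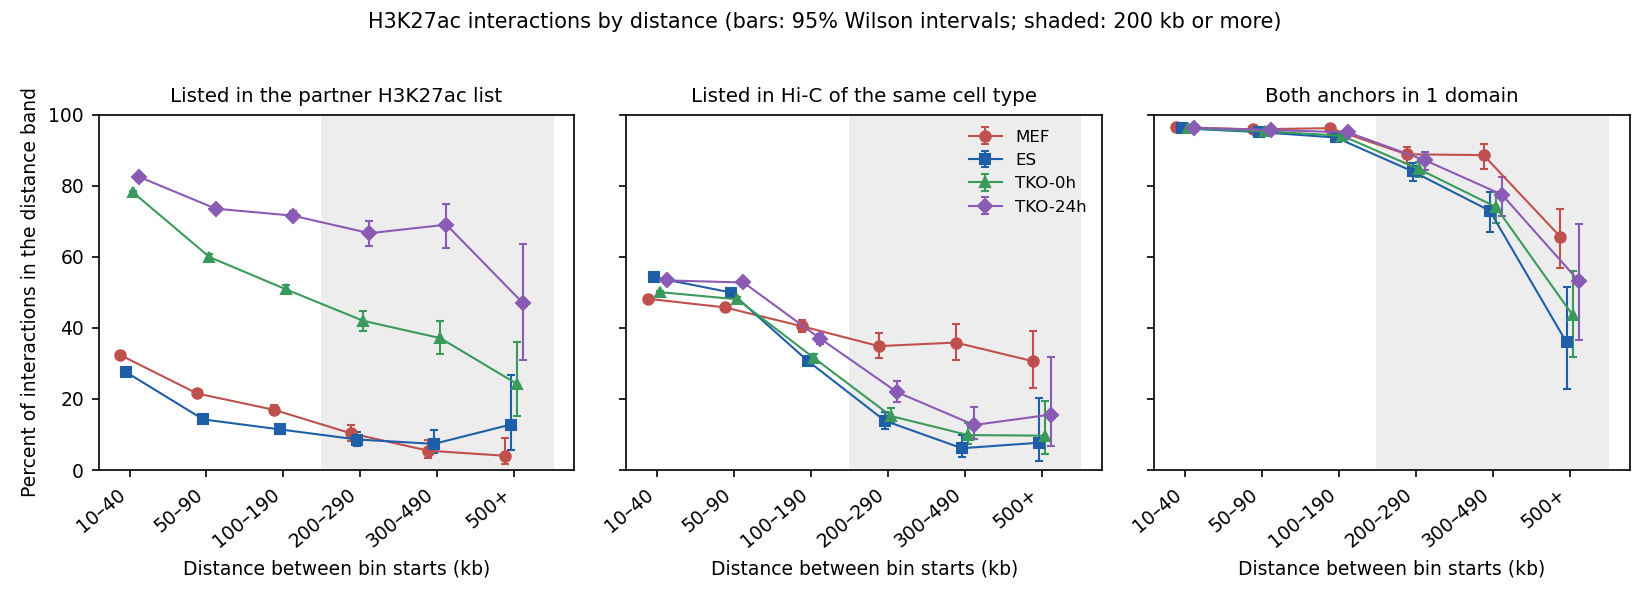
Percent of H3K27ac interactions in each distance band (x axis, kb) that are in the partner H3K27ac list (left; MEF with ES, TKO-0h with TKO-24h), in Hi-C of the same cell type, with ES Hi-C for TKO (middle), or within 1 domain (right), with 95% Wilson intervals. MEF contacts keep a Hi-C share of 30.6% at 500 kb or more, while ES contacts are at 7.69%, and the share within 1 domain is lowest at 500 kb or more in all 4 lists.

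Most long contacts lay inside a TAD. The deposited domains had a median width of 560 kb in MEF (2713 domains, none on chromosome X) and 600 kb in ES (2880). Both anchors fell in the same domain for 978 of 1134 MEF contacts (86.2%, 84.1 to 88.1), 895 of 1120 ES contacts (79.9%, 77.5 to 82.2), 1290 of 1604 TKO-0h contacts (80.4%, 78.4 to 82.3) and 811 of 967 TKO-24h contacts (83.9%, 81.4 to 86.1), with ES domains used for both TKO lists. The 16 MEF contacts on chromosome X were left out. In the band of 100 to 190 kb the shares were 93.5% to 96.2%. A wider pair has more chances to span a boundary, so these shares depend on span itself.

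Among contacts of 500 kb or more, 65.6% of MEF and 35.9% of ES contacts stayed within 1 domain. Contacts across 2 or more boundaries were rare, with 4 in MEF, 35 in ES, 37 in TKO-0h and 17 in TKO-24h. Of the contacts inside a domain, 63.6% to 73.1% had an anchor within 80 kb of a domain end. In 16.6% to 21.5% both anchors lay within 80 kb of opposite ends. The domains around these contacts had median widths of 600 kb in MEF, 760 kb in ES and TKO-0h and 680 kb in TKO-24h. The span of a contact limits where it can lie in its domain, and other placements were not compared. Whether anchors lay near domain ends more often than other placements would was therefore not tested. Median CPM inside and across domains was 4.22 and 4.05 in MEF, 4.02 and 3.96 in ES, 4.50 and 4.51 in TKO-0h and 4.44 and 4.46 in TKO-24h. Hi-C listed 35.4% of the inside contacts and 25.2% of the crossing ones in MEF, and 12.4% and 8.90% in ES. Without chromosome 19 the shares within 1 domain were 87.8% in MEF, 83.7% in ES, 82.5% in TKO-0h and 87.0% in TKO-24h. Swapping the domains gave 82.8% for MEF contacts in ES domains and 76.4% for ES contacts in MEF domains.

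Gene starts lay at both ends of more long contacts in the ES line than in MEF. By the RefSeq promoter table, both anchors held a start in 51 MEF contacts (4.43%), 173 ES contacts (15.4%), 207 TKO-0h contacts (12.9%) and 95 TKO-24h contacts (9.82%). For shorter contacts the shares were 5.79%, 9.66%, 8.18% and 7.88%. Without chromosome 19 the long contacts gave 3.75%, 11.9%, 10.1% and 7.46%. Coding genes overlapped 55.7% of the MEF anchor bins of long contacts, against 67.3% of all MEF anchor bins, and 68.0% in ES, against 72.5%.

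Long contacts touched 501 coding genes in MEF, 844 in ES, 1163 in TKO-0h and 724 in TKO-24h. MEF and ES shared 146 of these genes, which is 29.1% of the MEF set and 17.3% of the ES set. TKO-0h held 620 (73.5%) of the ES genes, and 606 of the TKO-24h genes (83.7%). A gene was counted when any part of it overlapped an anchor bin, so long genes had more chances.

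In each TKO list every interaction had a deposited H3K27ac peak of its own time at 1 anchor or both. A peak at both anchors was more frequent in long contacts, with 70.3% (68.0 to 72.4) against 53.7% of shorter ones at 0 h and 63.1% (60.0 to 66.1) against 51.4% at 24 h. Long contacts of TKO-0h that were absent at 24 h had a peak present at 0 h alone at an anchor in 58 of 961 cases (6.04%), and shorter ones in 20.6%. Long contacts of TKO-24h absent at 0 h had a peak present at 24 h alone at an anchor in 22 of 324 cases (6.79%), and shorter ones in 22.8%. Among contacts in both TKO lists, a peak at 0 h alone was at an anchor of 4.20% of long and 5.72% of shorter ones. A peak at 24 h alone was at an anchor of 2.49% and 4.57%.

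KLF4 HiChIP lists are shorter, with 235 contacts of 200 kb or more in ES and 322 at day 3, which limits how many H3K27ac contacts they can hold. The ES KLF4 list held 7.32% of ES long contacts, 6.17% of TKO-0h and 9.00% of TKO-24h ones, against 20.2% to 24.4% of shorter contacts. The KLF4 list of day 3 of reprogramming (cells with doxycycline and ascorbic acid for 3 days) held 10.7% of the MEF long contacts and 18.05% of the shorter ones. Counted from the KLF4 side, 82 of the 235 long ES KLF4 contacts (34.9%) were in the ES H3K27ac list, against 74.3% of shorter KLF4 contacts. Of the 322 long day 3 KLF4 contacts, 123 (38.2%) were in the MEF H3K27ac list, against 46.1% of shorter ones.

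The strongest long contact of MEF joined a bin within Gm41758, a non-coding gene, to the acyltransferase gene Oacyl over 240 kb on chromosome 18 (bins starting at 65500001 and 65740001). It was at 22.2 and 23.2 CPM in MEF, 7.12 and 7.74 in ES, 10.004, 9.29 and 10.9 in TKO-0h and 9.73, 6.80 and 7.16 in TKO-24h. MEF stood above all 8 other libraries. The contact was in both Hi-C lists, with counts of 25 and 26 in MEF and 26 and 50 in ES, and lay inside 1 domain in both.

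The next MEF contact spanned 200 kb within Grk5, a kinase of G protein-coupled receptors (chromosome 19, bins at 60880001 and 61080001, the latter also in Zfp950). It was at 16.3 and 21.7 CPM in MEF, 9.18 and 4.85 in ES, 10.1, 13.4 and 8.28 in TKO-0h and 6.60, 12.5 and 12.9 in TKO-24h. MEF was again above the other groups, and the contact crossed a domain boundary in both cell types. A contact of 250 kb from Tes, a focal adhesion gene, to a bin 8673 bp from Cav1, the main structural protein of caveolae (chromosome 6, bins at 17100001 and 17350001), was in the MEF list alone at 13.49 and 15.1 CPM, although both Hi-C lists held it with 26 and 29 counts in MEF and 18 and 19 in ES. On a scale of counts per 1000000 contacts of the whole library this Tes contact was the strongest in MEF, at 0.858.

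The transcription factor gene Klf9, whose promoter is printed above, was joined to Trpm3, a cation channel gene, over 230 kb (chromosome 19, bins at 22910001 and 23140001). This contact was at 11.8 and 15.002 CPM in MEF, 5.05, 4.76 and 4.14 in TKO-0h and 3.30, 5.14 and 6.47 in TKO-24h, and was not in the ES list. It was also in the KLF4 list of day 3. Across all 4 lists Trpm3 overlapped anchors of 18 long contacts in MEF, 1 in ES, 7 in TKO-0h and 4 in TKO-24h.

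In ES and TKO the strongest contacts lay at Zfp516, a zinc finger gene, and near Rab12, a small GTPase gene. From the start of the non-coding gene 2210420H20Rik to Zfp516 over 220 kb (chromosome 18, bins at 82750001 and 82970001) the values were 3.23 and 5.61 CPM in MEF, 17.4 and 18.3 in ES, 29.5, 27.9 and 32.3 in TKO-0h and 19.5, 24.5 and 21.5 in TKO-24h. The MEF libraries were below all others, and no value of TKO-0h overlapped another group, but edgeR did not call the difference between TKO times (log2 -0.33, SE 0.14, adjusted p = 0.197). The contact ending 4512 bp from Rab12 (chromosome 17, bins at 66230001 and 66480001) was at 21.8 and 19.4 CPM in ES, 24.8, 25.5 and 27.9 in TKO-0h and 29.0, 28.2 and 23.8 in TKO-24h, where both TKO groups overlapped. The MEF list lacked it, whereas MEF Hi-C held it with 16 and 23 counts, near the 22 and 22 of ES Hi-C.

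Another strong ES-line contact joined Fbxo15, an F-box gene known for its activity in ES cells, to Cndp2, a dipeptidase gene, over 260 kb (chromosome 18, bins at 84670001 and 84930001). It was at 13.9 and 14.1 CPM in ES, 15.8, 20.5 and 20.7 in TKO-0h and 12.2, 14.1 and 11.6 in TKO-24h, and was in neither the MEF list nor either Hi-C list. TKO-0h was above the other groups, although edgeR did not call the difference between TKO times (log2 -0.45, SE 0.17, adjusted p = 0.147). Fbxo15 anchored 11 long contacts in ES, 12 in TKO-0h, 9 in TKO-24h and 0 in MEF.

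**Figure D3:**
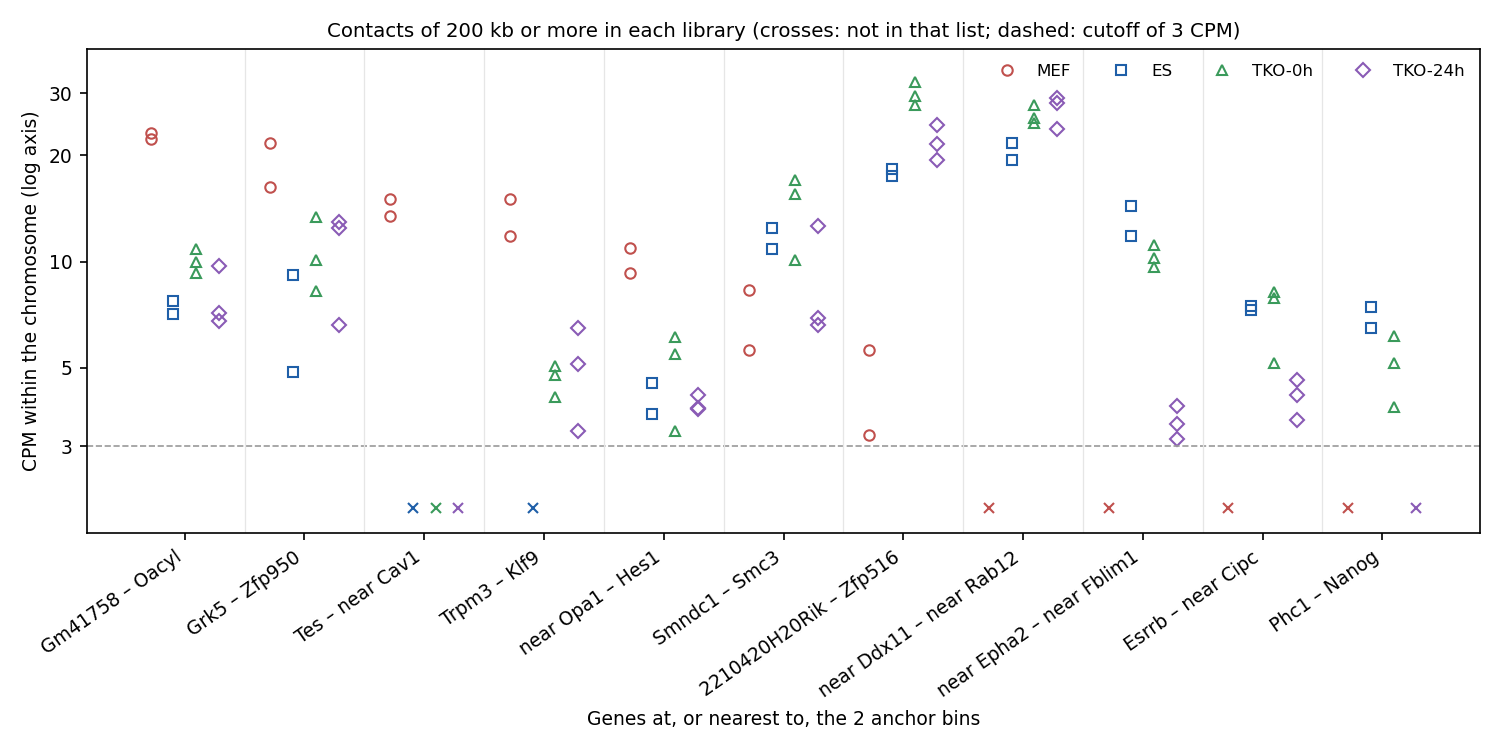
CPM within the chromosome (y axis, log scale) of 11 long contacts (x axis, named by the genes at or nearest to their anchors); each symbol is 1 library and a cross marks a list without the contact. MEF libraries are highest at Oacyl (22.2 and 23.2) and lowest at Zfp516 (3.23 and 5.61).

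Ranking by the whole library instead of the chromosome kept 59, 52, 56 and 52 of the 100 strongest contacts of the 4 lists. Chromosomes 17 to 19 held 36, 49, 48 and 55 of the 100 strongest by the authors' CPM and 8, 13, 17 and 21 by the library scale. On that scale the strongest ES contact joined Hs6st1, a heparan sulphate enzyme gene, to a bin 218400 bp away (chromosome 1, bins at 35840001 and 36060001, 0.863 on the library scale).

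Of the contacts in all 4 lists, the one between the promoters of Smndc1, a splicing factor, and Smc3, a cohesin subunit, had gene starts at both ends. Over 210 kb on chromosome 19 (bins at 53390001 and 53600001) it was at 5.61 and 8.29 CPM in MEF, 10.8 and 12.5 in ES, 10.1, 15.6 and 17.02 in TKO-0h and 12.7, 6.60 and 6.93 in TKO-24h. MEF was below ES and TKO-0h and overlapped TKO-24h, whose replicate 1 was apart from the other 24 h libraries. Neither Hi-C list held this bin pair, and it crossed a domain boundary in both cell types. Another 2 pairs of coding gene starts were in all 4 lists: Best1 and Rab3il1 with Fen1 and Tmem258 on chromosome 19 and 1600014C23Rik with Vegfa, the angiogenic growth factor, on chromosome 17. In 3 or more lists there were 36 such pairs, among them Rcor2, a corepressor gene, with Macrod1 and with Stip1.

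Contacts of 500 kb or more had a median CPM of 4.15 in MEF, 4.10 in ES, 4.49 in TKO-0h and 4.28 in TKO-24h. Over all long contacts the medians were 4.20, 3.98, 4.50 and 4.45. The longest contacts are given next by list. In MEF they reached 1810 kb on chromosome 13 (bins at 4660001 and 6470001, 3.04 and 4.30 CPM) and 1440 kb from Adamts1, a secreted protease, to the non-coding gene Gm41484 (chromosome 16, 4.63 and 5.92 CPM), which was also in the day 3 KLF4 list. In ES the longest ran 1930 kb from the translation factor gene Eif4a2 (chromosome 16, bins at 23100001 and 25030001, 3.55 and 4.65 CPM), followed by 1130 kb from Plaat3 to the amino acid transporter subunit Slc3a2 (4.71 and 4.39 CPM), also in TKO-0h. The longest of TKO-0h joined 2 tRNA clusters beside the histone genes of chromosome 13 over 1600 kb, at 3.33, 3.01 and 4.27 CPM. The longest of TKO-24h spanned 1070 kb near Keg1 on chromosome 19 (3.30, 3.30 and 3.24 CPM), and the next joined Plk2, a polo-like kinase, to a bin 5680 bp from Gpbp1 over 1020 kb (3.48, 5.11 and 4.001 CPM). Of these 7, MEF Hi-C listed the Plk2 contact, with 14 and 17 counts, and ES Hi-C listed none.

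Certain bins anchored many long contacts. In MEF the bin at 6470001 on chromosome 13, whose nearest coding gene Pitrm1 lay 68122 bp away, anchored 13 over 220 to 1810 kb and none elsewhere. Adjacent bins at 62320001 and 62330001 on chromosome 15 anchored 11 each in MEF and none elsewhere, and their nearest coding gene was Myc, the growth-promoting transcription factor, at 329640 and 339640 bp. A bin in Glis3, a Kruppel-like zinc finger gene, anchored 11 in MEF and 1 in TKO-24h, and over the whole gene Glis3 had 30 in MEF, 3 in ES, 9 in TKO-0h and 7 in TKO-24h.

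With the cutoff set within each chromosome, most of the 5 busiest bins of ES and of TKO-0h lay on chromosome 19. In TKO-24h most of them lay on chromosomes 16 and 17. The counts on chromosome 19 rest on that cutoff. Under 1 count cutoff for all chromosomes, chromosome 19 kept 2 long contacts in ES, 7 in TKO-0h and 3 in TKO-24h. The bin at 6670001, which holds the start of the non-coding gene 2410152P15Rik, anchored 23 long contacts in ES, 15 in TKO-0h and 4 in TKO-24h, and none in MEF, and its ES partners overlapped 23 coding genes. The Rcor2 bin at 7260001 anchored 13, 9 and 8, and the bin of Neat1, the RNA of paraspeckles, 13, 3 and 1 in the same order. On chromosome 17 the bin near Rab12 anchored 16, 12 and 11. A bin at 53050001 on chromosome 19, in Gm30234, went the other way, with 5 in ES, 13 in TKO-0h and 15 in TKO-24h. The bin at 95960001 on chromosome 16 anchored 5, 10 and 10, and that at 64860001 on chromosome 5 anchored 12, 13 and 6. Hes1, a target of Notch signalling, had 3 in MEF, 8 in ES, 11 in TKO-0h and 9 in TKO-24h.

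Gene lists for the cell types showed the same division, although signalling and housekeeping genes, described below, also exceeded the share of all coding genes. Of 26 pluripotency regulators, 0 had a long contact in MEF, 8 (30.8%) in ES, 4 (15.4%) in TKO-0h and 2 (7.69%) in TKO-24h. The shares of all 21631 coding genes were 2.32%, 3.90%, 5.38% and 3.35%. Esrrb, an orphan nuclear receptor of the pluripotency network, had 15 long contacts in ES, 7 in TKO-0h and 1 in TKO-24h. Its strongest, over 410 kb on chromosome 12 (bins at 86500001 and 86910001), was at 7.50 and 7.30 CPM in ES, 5.15, 8.22 and 7.88 in TKO-0h and 4.63, 3.55 and 4.18 in TKO-24h. TKO-24h was below the other libraries, without overlap, but edgeR did not call the change between TKO times (log2 -0.66, SE 0.25, adjusted p = 0.178). The contact lay inside 1 ES domain but not inside 1 MEF domain.

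Nanog, a homeodomain factor of pluripotent cells, was joined to Phc1, a Polycomb subunit gene, over 360 kb on chromosome 6 (bins at 122340001 and 122700001). The contact between these printed promoters was at 6.47 and 7.42 CPM in ES and 3.87, 5.17 and 6.13 in TKO-0h, with ES above TKO-0h, and was in neither the TKO-24h list nor Hi-C. Pou5f1, which encodes OCT4, had 3 long contacts in ES alone, the strongest with Tubb5, a tubulin gene, over 330 kb at 4.06 and 4.94 CPM. Mycn, a MYC family factor, had 5 in ES and 3 in TKO-0h, and Tfcp2l1, a transcription factor of naive pluripotency, had 1 in each.

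Of 27 fibroblast and mesenchymal genes, 6 (22.2%) had a long contact in MEF and 1 (3.70%) in each other list. Runx1, a Runt-family transcription factor, had 10 in MEF, the strongest over 410 kb on chromosome 16 (bins at 92690001 and 93100001) at 3.64 and 8.29 CPM, so its replicates lie far apart. Acta2, smooth muscle actin, and Snai2, a transcription factor of mesenchymal cells, had 3 each and Zeb1, another, had 2, all in MEF alone. The strongest of Snai2 spanned 550 kb at 4.63 and 8.06 CPM and was in MEF Hi-C with counts of 16 and 15. Pdgfrb, a growth factor receptor of mesenchymal cells, differed from these, with 1 contact in ES, 2 in TKO-0h, 2 in TKO-24h and 0 in MEF.

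AP-1 subunits and YAP targets with long contacts were found in MEF alone. Jun had 4, the strongest over 260 kb at 4.35 and 6.85 CPM (chromosome 4, bins at 95050001 and 95310001), with its far anchor 237480 bp from the nearest coding gene, Fggy. Fosl2 also had 4, the strongest at 4.37 and 5.58 CPM to Babam2 and Rbks over 440 kb. Jun and Fosl2 were 2 of 15 AP-1 subunits (13.3%, against 2.32% of all coding genes in MEF). Ccn2, a matrix protein gene activated by YAP and TEAD, had 2 and Ankrd1 had 1, which made 2 of 15 genes of that pathway.

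Signalling genes were spread over all lists, with 7 of 31 in MEF, 5 in ES, 5 in TKO-0h and 6 in TKO-24h. These were 22.6%, 16.1%, 16.1% and 19.4%, against 2.32%, 3.90%, 5.38% and 3.35% of all coding genes. Nodal, a TGF-beta family ligand, had 3 contacts in ES, 3 in TKO-0h and 5 in TKO-24h. Smad7, an inhibitor of TGF-beta signalling, had 1 in MEF, 6 in ES, 5 in TKO-0h and 2 in TKO-24h, and Fgfr1, a fibroblast growth factor receptor, had 5 in MEF, 0 in ES and 1 in each TKO list. Developmental transcription factors had few, with 2 of 63 in MEF and 2 in ES. Of 39 Hox genes, 2 had a long contact in MEF and 1 in ES. Among 20 housekeeping genes the numbers were 1, 4, 2 and 1, and of 18 architectural and mediator genes Smc3, with 6, 10, 8 and 10, accounted for all but those of Smc1a. Members of these lists are few, so a count can turn on 1 or 2 genes.

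**Figure D4:**
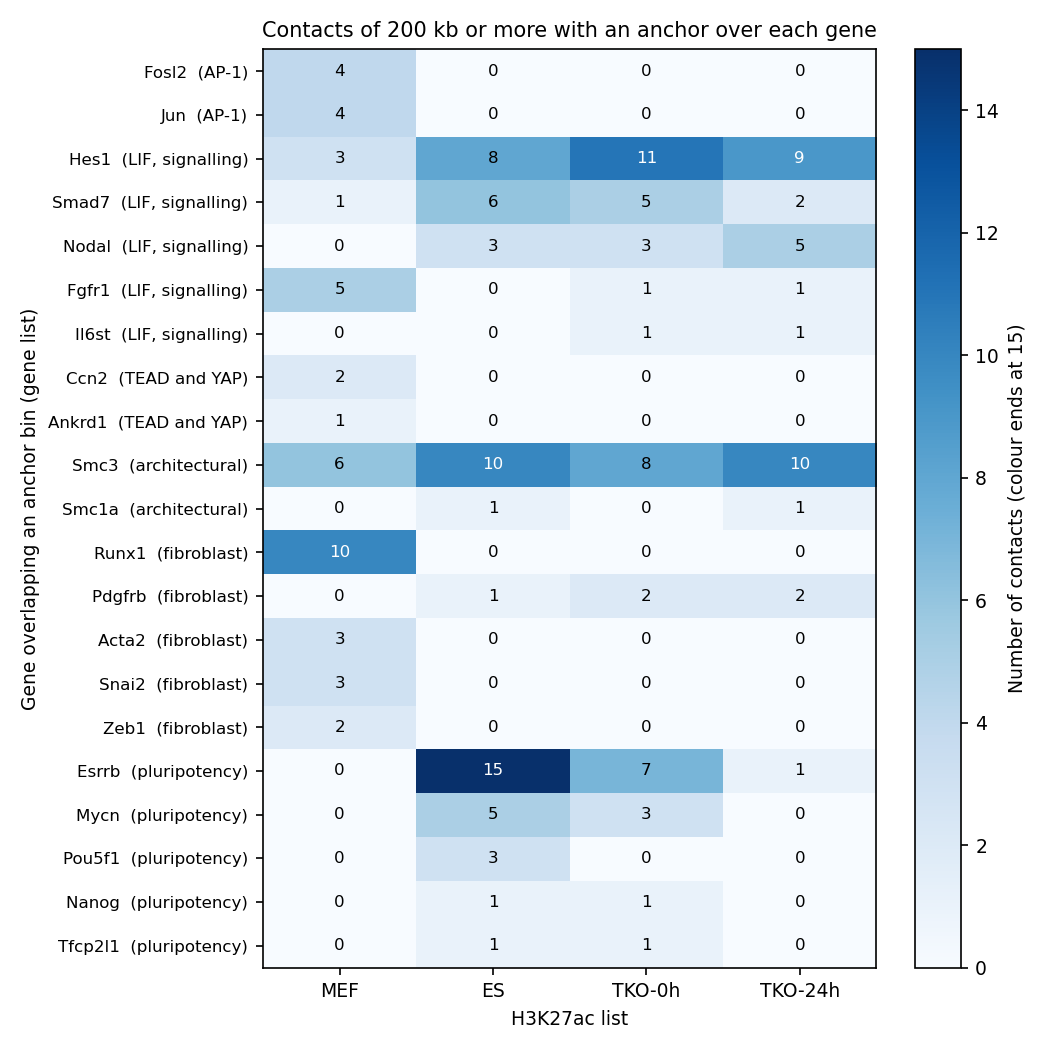
Number of long contacts with an anchor bin over each gene (y axis, with its gene list) in the 4 lists (x axis); colour follows the printed number. Esrrb has 15 in ES and 0 in MEF, and Runx1 has 10 in MEF and 0 in the other lists.

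Strength could be tested for contacts present in both lists of a pair, which leaves out all list-specific ones. Between MEF and ES, 22 of the 95 shared long contacts passed edgeR's quasi-likelihood test at an adjusted p under 0.05 (Benjamini-Hochberg over all 17901 shared interactions), 3 higher and 19 lower in ES. The background, over all shared interactions, was 32.0% called, with 17.6% higher in ES and 14.4% lower. The median log2 fold change (ES over MEF) was -0.38 over the long contacts and -0.04 over all. Without TMM factors the calls were 7 higher and 13 lower, and with contact totals of each chromosome 6 higher and 16 lower. These scalings moved the median of all interactions to 0.21 and 0.18 and that of the long contacts to -0.13 and -0.11, so the long contacts remained below the median of all. Leaving out MEF replicate 2 reduced the calls from 22 to 12, in a fit where the lone MEF library is assumed to vary like the ES libraries. DESeq2 called 10, and 9 without its filter on mean counts.

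Of the contacts lower in ES, Oacyl was called with a log2 fold change of -1.94 (SE 0.19, adjusted p = 5.46e-12 by edgeR), and its neighbour starting at 65510001 with -1.82 (SE 0.22, adjusted p = 2.19e-09). The contact of Hes1 over 330 kb (chromosome 16, bins at 29730001 and 30060001) was at 9.26 and 10.9 CPM in MEF and 4.51 and 3.69 in ES, and fell by 1.67 on the log2 scale (SE 0.24, edgeR adjusted p = 2.15e-07). Frmd6, a FERM domain gene linked to Hippo signalling, had a contact of 410 kb on chromosome 12 at 9.18 and 9.13 CPM in MEF and 3.89 and 3.58 in ES, a log2 change of -1.59 (SE 0.24, edgeR adjusted p = 4.74e-07). The Grk5 contact changed by -1.62 (SE 0.25, edgeR adjusted p = 5.48e-07). In each case the MEF and ES libraries did not overlap in CPM. The other contacts lower in ES included those of Itpr1 with Bhlhe40, 1600014C23Rik with Vegfa, Prune2 with Gcnt1 and Nsmce2 with Trib1.

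Of the 3 contacts higher in ES, Zfp516 changed by 1.63 (SE 0.24, edgeR adjusted p = 4.49e-07). The contact of Gm9895 with Plgrkt, a plasminogen receptor gene, over 290 kb on chromosome 19 was at 3.93 and 5.53 CPM in MEF and 11.1 and 11.3 in ES, a change of 1.04 (SE 0.30, edgeR adjusted p = 0.00559), with an adjusted p of 0.0587 without MEF replicate 1. That of Parp2, a DNA repair enzyme gene, with a tRNA cluster over 260 kb on chromosome 14 was at 3.86 and 3.86 CPM in MEF and 8.08 and 8.04 in ES. Its change was 0.73 (SE 0.26, edgeR adjusted p = 0.0294), and the adjusted p was 0.0564 to 0.274 when any 1 library was left out.

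Between TKO-0h and TKO-24h, 10 of 642 tested long contacts passed the same edgeR test, adjusted over 67723 interactions, with 1 higher and 9 lower at 24 h. Of all interactions 2.80% were called, 0.601% higher and 2.20% lower. The median log2 fold change (24 h over 0 h) was -0.04 over the long contacts and 0.01 over all. Without TMM factors the calls were 0 higher and 26 lower (0 and 27 with chromosome totals), with the median of all at -0.10 and that of the long contacts at -0.14. Leaving out TKO-24h replicate 2 or replicate 3 left 5 calls. Without replicate 2 the 24 h group is 1 summed sample, assumed to vary like the 0 h libraries. DESeq2, whose filter gave an adjusted p to 3 of the long contacts, called 0, with 16 at an unadjusted p under 0.05 (72 in edgeR).

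The strongest change was at a contact of 280 kb on chromosome 4 (bins at 141280001 and 141560001) between a bin 11221 bp from Epha2, an ephrin receptor gene, and a bin 6062 bp from Fblim1, an adhesion gene. It was at 9.64, 10.3 and 11.1 CPM in TKO-0h and 3.14, 3.90 and 3.46 in TKO-24h, and at 14.3 and 11.8 in ES. It fell by 1.44 at 24 h on the log2 scale (SE 0.21, edgeR adjusted p = 9.18e-09), with every 24 h library below every 0 h library. It was in neither the MEF list nor Hi-C, and it was called in every alternative that gave it an adjusted p, unlike the other 5 TKO contacts for which alternatives were run.

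The contact near Psmg1, a proteasome assembly factor gene (chromosome 16, bins at 95760001 and 95960001), was at 16.5, 13.6 and 16.4 CPM in TKO-0h and 7.25, 7.42 and 6.10 in TKO-24h. It fell by 1.06 (SE 0.20, edgeR adjusted p = 4.67e-05), and ES, at 4.68 and 5.29, was below both. At Zfp516 the bin pair starting at 82770001 was at 24.3, 28.5 and 22.8 CPM in TKO-0h and 15.4, 13.6 and 11.6 in TKO-24h, and fell by 0.81 (SE 0.16, edgeR adjusted p = 0.000108). The groups did not overlap at either contact.

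Calls further down the ranking depended on single libraries. At Nmnat2, an NAD synthesis gene (chromosome 1, bins at 152790001 and 153090001), values of 11.7, 10.1 and 11.03 CPM at 0 h and 7.99, 5.51 and 6.57 at 24 h gave a change of -0.64 (SE 0.16, edgeR adjusted p = 0.00637), with an adjusted p of 0.0918 without TKO-0h replicate 1 and 0.191 without TKO-24h replicate 2. From H2-M5, a class I histocompatibility gene, to Ubd, a ubiquitin-like gene (chromosome 17), values of 12.4, 15.9 and 6.30 CPM at 0 h and 5.10, 4.75 and 7.93 at 24 h overlapped, with a change of -0.89 (SE 0.23, edgeR adjusted p = 0.00701). That call was lost without TKO-0h replicate 1 (adjusted p = 0.0866), TKO-0h replicate 2 (0.215) or TKO-24h replicate 2 (0.173) in edgeR. The 1 contact higher at 24 h, from Cryaa, a lens crystallin gene, to Hsf2bp over 340 kb on chromosome 17, was at 4.86, 3.74 and 4.65 CPM at 0 h and 6.67, 8.70 and 6.94 at 24 h. Its change of 0.86 (SE 0.25, edgeR adjusted p = 0.0461) was not called when any 1 library was left out or without TMM factors. The Parp2 contact, higher in ES than in MEF, was lower at 24 h, with a change of -0.68 (SE 0.21, edgeR adjusted p = 0.0357).

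**Figure D5:**
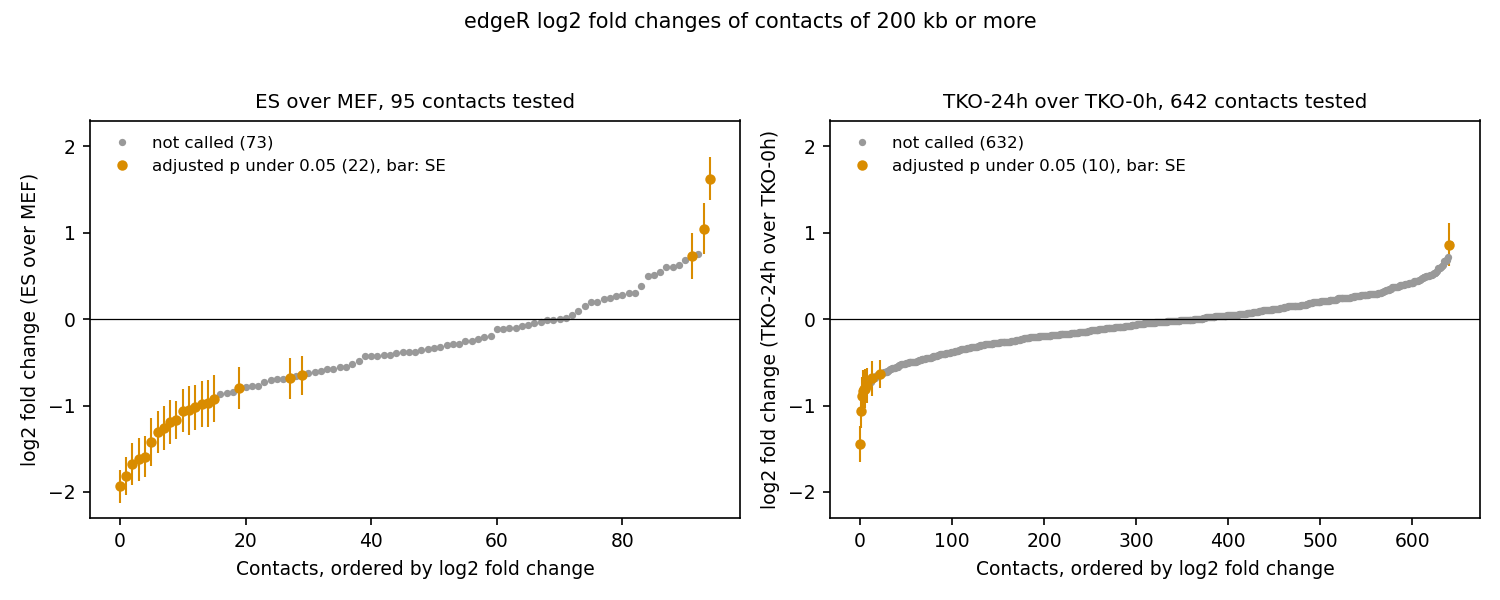
edgeR log2 fold change (y axis) of each tested long contact, ordered along the x axis, for ES over MEF (left, 95 contacts) and TKO-24h over TKO-0h (right, 642 contacts); coloured points have an adjusted p under 0.05 and bars are the SE. Of the called contacts, 19 of 22 are lower in ES and 9 of 10 are lower at 24 h.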

How the data were processed

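H3K27ac HiChIP was analysed in 10 libraries of 4 groups, with Hi-C in 2 cell types, KLF4 HiChIP lists and TAD lists for comparison. The submitters' processing notes name Bowtie2 2.2.3 and the build mm10, without giving their role. The contact caller, the test behind the deposited p-value and the domain caller are not given in the sources used here. Per the file headers, each interaction has a raw count, a CPM and a distance-normalized ratio per library. In HiChIP the deposited CPM was the count scaled to the contacts of the same chromosome, and every listed interaction was above 3 CPM in each library. The deposited Hi-C signal has chromosome constants of unknown origin, so only Hi-C presence and count were used. TKO tables also give genes and H3K27ac peaks per bin.

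Members were bin pairs with starts 200 kb or more apart. The members, gene lists and tests were chosen with earlier results of these data known. Named contacts were the 5 strongest, the 3 longest and the 5 busiest anchors of each list, the 5 strongest in all 4 lists, up to 5 called per direction and up to 5 genes per gene list, and further genes were picked after their values were seen. Genes came from RefSeq spans (GRCm38.p6), in which 254 of 256 list genes matched, and gene starts from the RefSeq promoter table. Shared interactions were tested on raw counts with edgeR 4.0.16 (R 4.3.3): filterByExpr, TMM on contact totals, quasi-likelihood test, Benjamini-Hochberg adjustment over all interactions tested, called at an adjusted p under 0.05. The step was tested on simulated data. DESeq2 1.42.0, other scalings and left-out libraries were alternatives. Counts of amplified reads are not independent molecules. Tables were handled with Python 3.11.15, pandas 2.3.3, numpy 2.4.6 and scipy 1.17.1.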

Additional observations from a re-analysis of the deposited data

How the results depend on the processing

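Of the 14 contacts named for a call, 6 of 8 between MEF and ES and 1 of 6 between TKO times kept it in every alternative that gave an adjusted p; no direction reversed. The 22 calls between MEF and ES became 8 (of 23) at 300 kb or more, 10 with DESeq2 and 9 with DESeq2 without its filter on mean counts (an alternative chosen after seeing the data), and 12 to 20 with 1 library left out. The 10 calls between TKO times became 3 (of 162) at 300 kb or more, 26 without TMM, 27 with chromosome totals, 0 with DESeq2 and 1 without its filter, and 5 to 9 with 1 library left out. With the replicate block there were 24 calls between MEF and ES and 12 between TKO times. Calls between TKO times numbered 10 with all 6 libraries separate, and 10 with TKO-0h replicates 2 and 3 also summed. Deviations of same-numbered libraries had correlations of 0.03 between MEF and ES and -0.0068 to 0.005 between TKO times. At these counts, counting noise can hide a shared deviation, so this check cannot decide whether the numbers pair the libraries.

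MEF contacts listed in ES (8.26%) came to 16.9% within 1 bin, 5.30% for lists of equal length, 2.16% under 1 count cutoff, 5.08% at 300 kb or more and 6.00% without chromosome 19 (chosen after seeing the data). ES contacts listed in TKO-0h (54.6%) came to 73.2%, 41.2% and 65.4%, and TKO-24h contacts listed in TKO-0h (66.5%) to 82.7%, 58.7% and 73.0%, under the first 3 of these settings. Of 36 further counts and shares under alternatives, 28 moved (shares beyond their interval, numbers of contacts by more than 1.5 times). Median counts of 12 to 26 per contact and library limit single contacts, and a contact absent from a list may lie just under its cutoff.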
